A study of Bos taurus with 17 samples.

Results

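The baseline transcriptome of the bovine morula was described from the 9 control pools of a series of 17 pools. The control pools were all samples labelled control, numbered 1, 2, 3, 4, 5, 6, 9, 10 and 13, and no treated pool was used. Each pool held 10 morulae of Bos taurus, developed in vitro, and was profiled by stranded messenger RNA sequencing. The labels give no hours of culture, no medium or vehicle, no embryo sex and no fertilisation round, so whether pools came from separate rounds is not known and the spread between them may be technical. A pool averages 10 embryos and all their blastomeres. Fewer cells of a type and less RNA per cell therefore cannot be told apart in any value given here.

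The morula is the ball of blastomeres in which cells flatten against each other, form junctions and acquire an outside and an inside. In cattle the main wave of embryonic transcription starts shortly before this stage, while RNA stored in the oocyte is being cleared. Outer cells later form the trophectoderm, the precursor of the placenta, and inner cells form the epiblast and the primitive endoderm. POU5F1 and NANOG are factors of pluripotent cells, CDX2 and GATA3 are trophectoderm factors, GATA6 is a primitive endoderm factor and CLDN7 is a tight junction protein.

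Levels are RPKM (reads per kilobase of exon, divided by a size set per library), so levels of genes of different length can be set side by side. Errors are SD over the 9 pools and the coefficient of variation (CV) is the SD divided by the mean. The table covered 17167 genes, and the control pools held 125 to 162 M (mega) reads on them. A count of 0 allows up to 3 reads, which on 1 kilobase is 0.0183 to 0.0237 RPKM and covers counting error only. Pools 2, 3 and 6 stood apart, with reads on 10055 to 11268 genes against 13587 to 15430 in the other 6, at similar depth. Over log2(RPKM + 1) of genes at a mean of at least 10 RPKM, the correlation between pools was 0.884 to 0.957 in the 15 pairs among the other 6 and 0.738 to 0.873 in the 21 pairs with pool 2, 3 or 6. Summed RPKM was highest in pool 6, at 807381, and lowest in pool 9, at 506570. The size used to scale a library did not follow its reads on these genes. RPKM times length per read was 7.64 in pool 6 at 149.9 M reads and 7.58 in pool 9 at 124.8 M reads. How this size was set is not given in the sources used here. Its part in which pool was highest or lowest was not tested.

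Of the 17167 genes, 16819 had reads in at least 1 control pool and 8325 had reads in all 9. A level of 1 RPKM or more in every pool was reached by 6298 genes, or 36.7%. A mean of at least 10 RPKM was reached by 5780 genes, or 33.7%, and 4300 genes, or 25%, had a mean under 0.5 RPKM. The output was concentrated in few genes. The 66 genes at a mean of 1000 RPKM or more held 20.3% of all RPKM, the 1212 genes at 100 to 1000 RPKM held 51.6%, and the 4502 genes at 10 to 100 RPKM held 24.1%.

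The most abundant transcripts encoded the actin cytoskeleton, the mitochondrial respiratory chain, creatine metabolism, iron storage and ubiquitin. ACTB, cytoplasmic beta-actin, ranked 1 with 9841 ± 1544 RPKM (SD, n = 9). Its lowest, median and highest pools were 8214, 9635 and 13119 RPKM, and pool 4 alone lay above 10651 RPKM. ACTG1, the other cytoplasmic actin, had 1797 ± 275 RPKM, so the ratio of mean ACTB to mean ACTG1 was 5.48, and ACTB was higher in 9 of 9 pools. Monomeric actin is bound and turned over by thymosins, profilin and cofilin, and their genes were all among the 20 most abundant. TMSB10 had 5308 ± 2384, PFN1 3337 ± 830, CFL1 2634 ± 453 and TMSB4X 2302 ± 825 RPKM.

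CKB, the brain-type creatine kinase that passes phosphate between creatine and ADP, ranked 3 with 5952 ± 582 RPKM. Its pools ran from 5025 through a median of 6185 to 6642 RPKM, a CV of 0.0978, the lowest of the 20. FTH1, the ferritin heavy chain that stores iron, had 4108 ± 688 RPKM. PRDX2, a peroxiredoxin that reduces hydrogen peroxide, had 2294 ± 529 RPKM. The polyubiquitin gene UBB had 2811 ± 674 RPKM.

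CLDN6, a claudin of tight junctions in early epithelia, ranked 10 with 2768 ± 285 RPKM and ran from 2345 to 3069 RPKM. POU5F1 ranked 17 with 1953 ± 224 RPKM and was the only sequence-specific transcription factor among the 20. The respiratory chain was present through the mitochondrially encoded COX3 (6411 ± 2615 RPKM), ATP6 (3115 ± 1448 RPKM) and COX2 (1977 ± 822 RPKM), and through nuclear ATP5F1B (1811 ± 178 RPKM), the catalytic beta subunit of ATP synthase. Also among the 20 were PPIA, a prolyl isomerase, C1QBP, a mitochondrial matrix protein, and RPS3, a ribosomal protein, at 3656 ± 1057, 2087 ± 616 and 1792 ± 582 RPKM.

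The 20 genes together held 10.8 ± 0.629% of summed RPKM, from 9.69% in pool 9 to 11.7% in pool 6, and 7.45% of reads on average. Pool 6 was the highest pool for 16 of the 20 and pool 9 the lowest for 15. Over all 5780 genes at a mean of at least 10 RPKM, pool 6 was highest for 29.6%. Of the 20, 8 had a CV of at most 0.2, the bound used below for a stable gene.

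**Figure D1:**
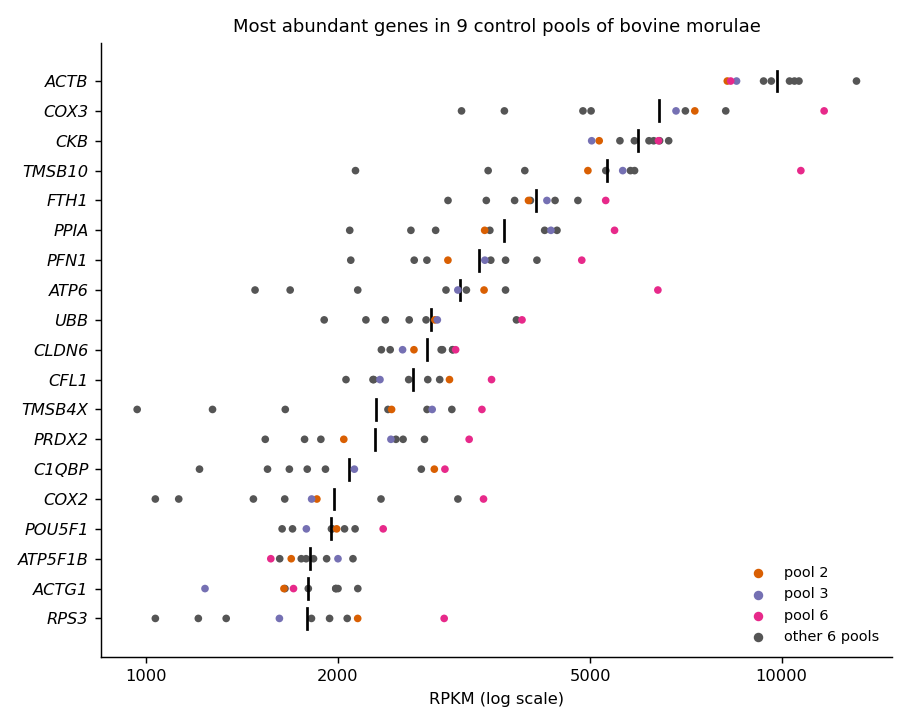
RPKM on a log scale for 19 of the 20 genes with the highest mean over the 9 control pools. Each point is a pool, pools 2, 3 and 6 are coloured, and the black bar is the mean. CKB, CLDN6, POU5F1 and ATP5F1B form tight groups of points, whereas COX3, TMSB10 and ATP6 are spread, with pool 6 on the right.

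Between pools, the median CV of the 5780 genes at a mean of at least 10 RPKM was 0.351, with quartiles of 0.261 and 0.467. Spread depended on level. The median CV was 1.60 at means of 0.1 to 1 RPKM, 0.789 at 1 to 10, 0.380 at 10 to 100, 0.264 at 100 to 1000 and 0.324 at 1000 RPKM or more. Counting reads alone would have given a median CV of 0.0110 at 10 to 100 RPKM and 0.00482 at 100 to 1000 RPKM. These counting values do not cover uneven amplification, as the reads carry no molecular identifiers. Over the other 6 pools, without pools 2, 3 and 6, the median CV was 0.274 at 10 to 100 RPKM and 0.232 at 100 to 1000 RPKM.

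Stable genes, with a CV of at most 0.2, numbered 608, or 10.5% of the 5780. They were more abundant than the rest, with a median mean of 109 RPKM against 35.02 RPKM for all genes at a mean of at least 10 RPKM, and had a like median length of 1966 against 1993 bases. Of the 608, 546 also had a CV of at most 0.2 over the other 6 pools. Counts of stable genes in the lists below are set beside all 5780 genes and are not matched in level. Just inside the bound were ODC1 (CV 0.19998) and EMC2 (CV 0.1996), and just outside it were PMM2 (CV 0.20003) and EIF5A (CV 0.2002).

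The most stable gene was HSPA8, the constitutive cytosolic HSP70 chaperone, with 1191 ± 81.0 RPKM and a CV of 0.0680. Its lowest, median and highest pools were 1074, 1208 and 1330 RPKM. ADIPOR2, an adiponectin receptor, had 344 ± 24.1 RPKM (CV 0.0701) and AQP3, a water and glycerol channel, had 269 ± 20.9 RPKM (CV 0.0776). Both kept every pool within 231 to 370 RPKM.

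Others of the 15 lowest CVs served the cytoskeleton, RNA binding and translation. TPM3, a tropomyosin, had 772 ± 60.4 RPKM, TUBA1B, an alpha-tubulin, had 479 ± 41.9 RPKM, and the 14-3-3 protein gene YWHAB had 336 ± 31.1 RPKM. HNRNPF and HNRNPD, which bind nuclear RNA, had 558 ± 51.3 and 352 ± 32.0 RPKM, and KARS1, the lysyl-tRNA synthetase, had 131 ± 11.9 RPKM. F11R, a junctional adhesion molecule, had 275 ± 23.9 RPKM. The rest were DDOST, PITPNB, DNAJB6, MFSD5 and MRPL15, with CVs of 0.0836 to 0.0894. Set against genes of like mean, by the ratio of each CV to the running median CV of the genes nearest in mean, UBE2T, THOC1, PAFAH1B1, CCDC93 and NDC80 were also among the 10 steadiest, at 11.3 to 22.4 RPKM and ratios of 0.274 to 0.314.

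Variable genes, with a CV of at least 1, numbered 40, or 0.692% of the 5780. Of these, 33 had a mean under 20 RPKM, and their median length was 1126.5 bases. Of the 40, 36 were highest in pool 2, 3 or 6, namely 20 in pool 6, 13 in pool 2 and 3 in pool 3. This share, 90.0%, stood beside 56.9% of all 5780 genes. A gene can reach the mean of at least 10 RPKM, and this CV, through the pool in which it is high. The share, and the fall in CV without these pools, are therefore partly set by the bounds and are a description. Only 5 of the 40 also had a CV of at least 1 over the other 6 pools, and the 4 with a symbol were BTG4, EIF4E1B, ID3 and PRAME. GNB1L stood just inside the bound (CV 1.0005) and IFFO1 just outside (CV 0.9933).

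BTG4, an adaptor that recruits the CCR4-NOT deadenylase to maternal messenger RNA in mouse oocytes, was the most variable gene, with 31.3 ± 58.3 RPKM and a CV of 1.86. It had 181 RPKM in pool 3, 52.0 in pool 1, 10.5 to 16.2 in pools 2, 4, 5 and 9, 0.0707 in pool 10, 0.0114 in pool 6 and no read in pool 13. EIF4E1B, an oocyte form of the cap-binding protein, had 45.5 RPKM in pool 1 and 30.4 in pool 3, at most 9.23 RPKM in any other pool, and no reads in pools 2, 6 and 10. ID3, an inhibitor of basic helix-loop-helix factors, had 67.5 RPKM in pool 1 and 31.4 in pool 3, and 7.08 RPKM or less outside pools 1, 2 and 3. Pools 1 and 3 were thus the highest pair for all 3 genes. PRAME, a member of a multigene family whose copies may share reads, was highest in pool 5 at 36.5 RPKM and had no read in pool 6.

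The other named variable genes were mostly raised in a single pool. Pool 6 was highest for the replication-dependent histone genes H2AC6 (75.8 RPKM) and H2BC4 (106 RPKM), for PRRX2 (62.1 RPKM), CRCT1 (62.8 RPKM), NARF (52.5 RPKM), CREB3 (49.7 RPKM), AMIGO3 (36.4 RPKM) and GNB1L (241 RPKM). Over the other 6 pools the CV of PRRX2 was 0.458, of CRCT1 0.290 and of NARF 0.374. Pool 2 was highest for NXNL2 (56.2 RPKM), FCHSD1 (43.4 RPKM) and ZNF668 (40.5 RPKM), and pool 3 for NPSR1 (47.5 RPKM). Under a CV of 1 but far above genes of like mean were the histone gene H2BC11, with 669 RPKM in pool 6, mitochondrial ND3, with 404 RPKM in pool 6 and 137 ± 107 RPKM over all pools, and a microRNA locus, bta-mir-2887-2, a symbol that stands on several rows. Its most abundant row, of only 55 bases, ran from 27.8 RPKM in pool 1 to 2677 RPKM in pool 6. The libraries were of messenger RNA, and whether these reads come from the microRNA was not tested.

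**Figure D2:**
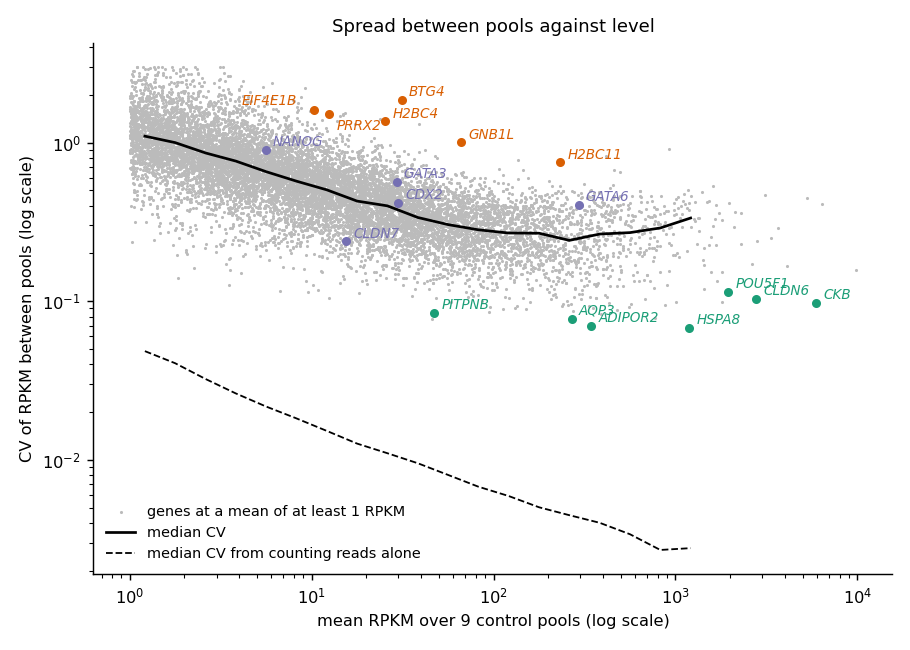
CV of RPKM between the 9 control pools against mean RPKM, both on log scales, for genes at a mean of at least 1 RPKM. The solid line is the median CV and the dashed line the median CV that counting reads alone would give. HSPA8, AQP3 and CKB lie far below the median and BTG4, H2BC4, GNB1L and H2BC11 far above it, and the counting line is far below nearly all genes.

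Most genes that were absent from a library despite a sizeable mean lacked reads in the same 3 pools. These pools were set apart by having reads on fewer genes, so this count restates that trait for abundant genes. Of the 5780 genes at a mean of at least 10 RPKM, 309 had no read in some pool. Of these, 299 lacked reads only in pool 2, 3 or 6, and 206 genes lacked them in pool 2. At most 4 such genes fell in any of the other 6 pools.

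Gene length moved with part of the spread. For the 280 genes under 750 bases with a mean of at least 50 RPKM, the median log2 ratio of a pool to the gene's mean was 0.72 in pool 6 and -0.97 in pool 9, and it was also negative in pool 4 (-0.57) and pool 1 (-0.50). For the 216 genes of 3000 bases or more, it was -0.14 in pool 6, 0.20 in pool 9, 0.22 in pool 4 and -0.26 in pool 3. Short genes were thus high in pool 6 and low in pools 9, 4 and 1, and the median CV was 0.373 under 750 bases and 0.243 at 1500 to 3000 bases. The read-weighted mean length ran from 2115 bases in pool 6 to 2639 in pool 9. The part of length in the values that follow was not tested.

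Among the 6 lineage genes, POU5F1 was highest, GATA6 next, CDX2 and GATA3 alike, and CLDN7 and NANOG lowest. POU5F1 ran from 1636 RPKM in pool 9 through a median of 1962 to 2360 in pool 6, so every pool was near its mean. GATA6 had 293 ± 119 RPKM, with a lowest pool of 128 (pool 6), a median of 284 and a highest of 473 (pool 9). It lay below POU5F1 and above CDX2 in 9 of 9 pools each, and was 231 times as high on average as GATA4, a related endoderm factor. CDX2 had 30.0 ± 12.5 RPKM, with a lowest of 16.1, a median of 27.1 and a highest of 55.5. GATA3 had 29.3 ± 16.6 RPKM, with a median of 30.8 and a highest of 53.4, but 0.0832 RPKM in pool 2. CDX2 exceeded GATA3 in 5 of 9 pools, so the order of this pair was within their spread.

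CLDN7 had 15.5 ± 3.68 RPKM, from 9.10 in pool 6 to 20.7 in pool 3, and was below GATA3 in 7 of 9 pools. NANOG had 5.602 ± 5.02 RPKM, a CV of 0.897. It had 15.4, 9.51, 7.57, 3.16 and 8.39 RPKM in pools 1 to 5, no read in pool 6, and 0.378, 2.05 and 4.002 RPKM in pools 9, 10 and 13. The mean of POU5F1 was 349 times that of NANOG. The library in which NANOG had no read, pool 6, was the one with the highest POU5F1. Pool 6 also had the highest summed RPKM, at 807381, and, like pools 2 and 3, reads on fewer genes. The part of either in this pairing was not tested. Without pools 2, 3 and 6, the means over the other 6 pools were 1906 RPKM for POU5F1, 343 for GATA6, 35.7 for GATA3, 33.9 for CDX2, 15.3 for CLDN7 and 5.56 for NANOG, so GATA3 and CDX2 changed places and the rest of the order held.

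Of the 31 rows of the pluripotency and epiblast list, 19 reached 1 RPKM in every pool (61.3%, against 36.7% of all genes). Of the 17 rows at a mean of at least 10 RPKM, 2 were stable, POU5F1 and ZFP42, against 10.5% of all such genes. ZFP42, also called REX1, had 336 ± 50.1 RPKM. TBX3, a T-box factor, had 205 ± 64.0, DPPA2, a chromatin factor of preimplantation cells, 140 ± 30.0, ESRRB, an orphan nuclear receptor, 136 ± 28.9, KLF5 133 ± 45.1 and PRDM14 126 ± 28.8 RPKM. In the order DPPA2, ESRRB, KLF5, DPPA3 and PRDM14, each gene was above its neighbour in 4 to 6 of 9 pools, so neighbours in this order did not differ beyond their spread. OTX2, KLF4 and KLF17 followed at 67.1 ± 21.2, 58.7 ± 16.6 and 52.8 ± 20.2 RPKM, and LIN28A, which blocks let-7 maturation, at 27.2 ± 8.22 RPKM. At the low end, NODAL had no read in any pool, TDGF1, its coreceptor, had a mean of 0.181 RPKM, KLF2 0.421 RPKM and PRDM1 0.269 RPKM. FGF4, the ligand that in the mouse favours primitive endoderm, had 9.42 ± 11.2 RPKM, with 37.3 RPKM in pool 3 and no read in pool 2.

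The trophectoderm list had 36 rows, of which 16 reached 1 RPKM in every pool (44.4%, against 36.7% of all genes). Of its 20 rows at a mean of at least 10 RPKM, 3 were stable (CLDN6, AQP3 and DAB2), where 10.5% of all such genes were. Its abundant members were structural and transport genes. The simple epithelial keratins KRT8 and KRT18, which form filaments together, had 1037 ± 471 and 514 ± 111 RPKM. KRT8 ran from 327 RPKM in pool 5 through a median of 944 to 1589 in pool 1, with pools 1, 4, 9 and 10 at 1362 or more, and KRT8 exceeded KRT18 in 9 of 9 pools. CLDN4, another claudin, had 300 ± 105 RPKM and SLC2A1, a glucose transporter, 186 ± 43.3 RPKM.

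Among the upstream factors of that list, TFAP2C had 134 ± 35.9, TEAD4 110 ± 22.7, MSX2 99.0 ± 31.2 and GATA2 22.3 ± 10.4 RPKM. TEAD4, which in the mouse is needed for CDX2 and GATA3 expression, was 29.4 times as high as TEAD1. Factors known from later trophoblast had means of 0.131 RPKM for EOMES, 0.0185 for ELF5 and 0.0666 for TFAP2A, and the highest single pools were 1.12, 0.167 and 0.302 RPKM. IFNT, the bovine signal of pregnancy recognition, had 22.4 RPKM in pool 6, at most 2.16 RPKM elsewhere and no reads in pools 2 and 3. Reads of IFNT may be split with its near-identical copies.

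The primitive endoderm list had 27 rows, 11 of them at 1 RPKM or more in every pool (40.7%, against 36.7% of all genes). Of its 12 rows at a mean of at least 10 RPKM, 1 was stable (DAB2), against 10.5% of all such genes. After GATA6 came FN1, fibronectin, with 164 ± 85.4 RPKM, FGFR4, a receptor for FGF ligands, with 80.0 ± 30.2, the adaptor DAB2 with 78.4 ± 12.6 and the basement membrane collagen COL4A1 with 28.1 ± 15.7 RPKM. FN1 ran from 80.0 RPKM in pool 2 through a median of 155 to 328 in pool 9. Factors that follow GATA6 in the mouse were low or uneven. SOX17 had 7.66 ± 9.35 RPKM, with 28.8 RPKM in pool 6, no reads in pools 2, 3 and 9, and a mean of 6.69 RPKM over the other 6 pools, while GATA4 had a mean of 1.27, HNF4A 1.72, FOXA2 0.411 and SOX7 0.0328 RPKM. PDGFRA, a receptor of the lineage, had 5.45 ± 2.75 RPKM and fell to 0.0114 RPKM in pool 2. Pool 9, low for short genes, was highest for 11 of the 27 rows, against 14.4% of all genes at a mean of 0.1 to 100 RPKM.

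**Figure D3:**
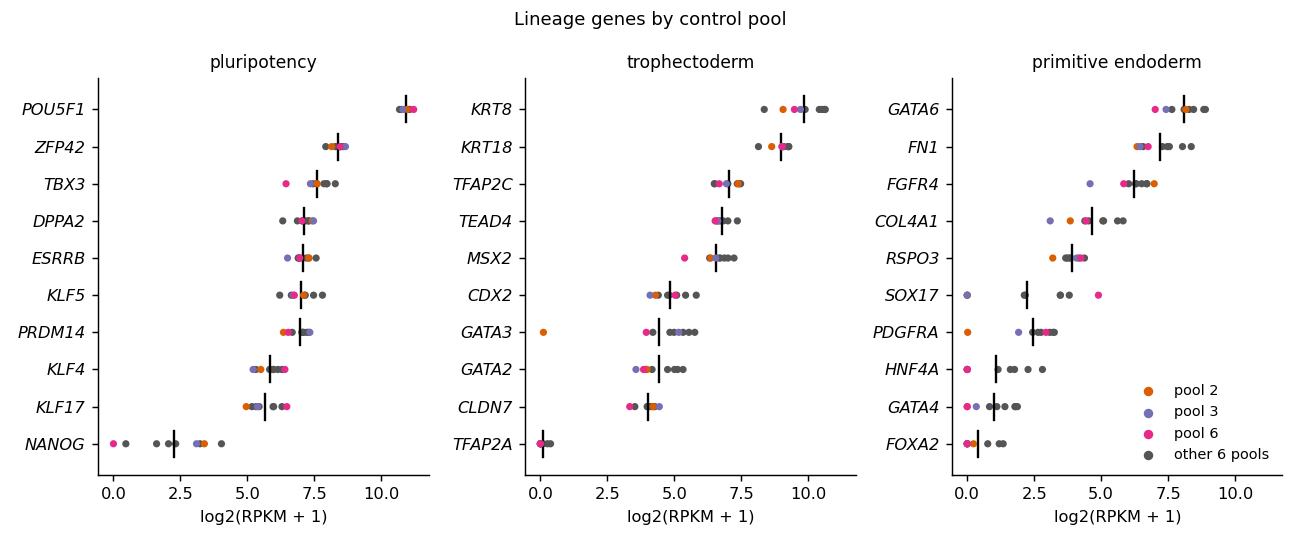
log2(RPKM + 1) of 10 genes from each of the pluripotency, trophectoderm and primitive endoderm lists, a point per control pool and a bar at the mean of the log values. POU5F1 and ZFP42 are tight, GATA3 and PDGFRA have a single low point in pool 2, and NANOG, SOX17 and HNF4A are spread down to 0.

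Of 39 rows on compaction, junctions and polarity, 29 reached 1 RPKM in every pool (74.4%, against 36.7% of all genes). Of the 27 rows at a mean of at least 10 RPKM, 2 were stable (CLDN6 and F11R), against 10.5% of all such genes. EZR, ezrin, which links actin to the apical membrane, had 731 ± 337 RPKM, from 349 in pool 6 through a median of 612 to 1321 in pool 4. CDH1, E-cadherin, the adhesion molecule of compaction, had 168 ± 39.8 RPKM, from 124 to 230, and its partners CTNNA1 and CTNNB1 had 94.0 ± 45.7 and 51.3 ± 22.7 RPKM. CRB3, an apical polarity protein, had 204 ± 54.8 RPKM and the polarity kinase gene PRKCI 48.9 ± 12.9 RPKM. The polarity partner PARD6B had 22.4 ± 12.2 RPKM, and the desmosomal genes DSC2 and DSC3 had means of 0.879 and 0.131 RPKM. EZR, CTNNA1 and CTNNB1 were each highest in pools 1, 4 and 9, the pools in which short genes were lowest.

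Hippo signalling keeps the coactivators YAP1 and WWTR1 out of the nuclei of inner cells, so that TEAD factors act in outer cells. Of 22 rows, 10 reached 1 RPKM in every pool (45.5%, against 36.7% of all genes). None of its 7 rows at a mean of at least 10 RPKM was stable, against 10.5% of all such genes, and TEAD4 had the lowest CV, 0.206. WWTR1 had 107 ± 24.5 RPKM and YAP1 24.0 ± 11.7 RPKM, so WWTR1 was 4.44 times as high and above YAP1 in 9 of 9 pools. The upstream NF2 and WWC1 had 33.6 ± 12.2 and 35.4 ± 20.3 RPKM. The kinases LATS1 and LATS2 had means of 1.44 and 4.65 RPKM, and the angiomotin AMOT 2.37 RPKM. CCN2, a target of YAP1 and TEAD factors in many cells, had 28.0 ± 16.04 RPKM, with 63.2 RPKM in pool 2.

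Few genes of the oocyte list reached 1 RPKM in every pool. Of 52 oocyte and maternal-effect genes listed, 42 matched a row. Of these, 6 reached 1 RPKM in every pool, or 14.3% against 36.7% of all genes, and the median of the means was 1.67 RPKM. A mean under 0.5 RPKM was found for 9 of the 42 rows, where 25% of all genes had one. Means of at least 10 RPKM were reached by 9 rows, where 33.7% of all genes reached them. Of the rows at that level, TRIM28 was the 1 stable row, against 10.5% of all genes at that level. TRIM28, a corepressor that protects imprints, had 313 ± 54.1 RPKM, DPPA3, a maternal factor that guards DNA methylation in the mouse zygote, 131 ± 40.4 RPKM, and the arginine methyltransferase gene PRMT5 86.3 ± 17.8 RPKM. These 3 are also transcribed in embryonic or dividing cells. Members of the subcortical maternal complex were uneven, with OOEP at 20.2 ± 14.2 and TLE6 at 20.6 ± 11.2 RPKM, and 0.00659 RPKM of TLE6 in pool 2. MOS, the kinase of meiotic arrest, had 10.1 to 23.3 RPKM in pools 1 to 6, 0.748 RPKM in pool 9 and no reads in pools 10 and 13.

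Several genes of growing oocytes were low on average. GDF9, an oocyte growth factor, had a mean of 0.211 RPKM, DAZL 0.0283 RPKM and NOBOX 0.00251 RPKM. The zona genes ZP2, ZP3 and ZP4 had means of 1.29, 2.41 and 0.720 RPKM, with 9.16 RPKM of ZP2 in pool 2 and 8.23 of ZP3 in pool 6. Reads were missing for 7.14% of the 42 rows in pool 1 and 11.9% in pool 5, against 6.46% and 5.39% of all genes at a mean of 0.1 to 100 RPKM. The list lacked reads for 64.3% of rows in pool 2, 45.2% in pool 3 and 47.6% in pool 6, against 38.1%, 30.7% and 29.8% of those genes. In pools 4, 9, 10 and 13 it lacked reads for 26.2%, 28.6%, 33.3% and 33.3% of rows, against 11.2%, 14.5%, 14.6% and 12.5%. The list thus lacked reads more often than these genes in every pool, least so in pool 1. The sets are not matched in level, since the median of the list's means was 1.67 RPKM and DAZL and NOBOX lie under 0.1 RPKM. The part of level in this difference was not tested.

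Several oocyte genes were high together in pool 1 and, in part, in pool 3. KHDC3L, of the subcortical maternal complex, had 47.1 RPKM in pool 1 and 26.5 in pool 3, a median of 2.38 RPKM over the 9 pools, and no reads in pools 2 and 6. The oocyte linker histone gene H1-8 had 20.3 RPKM in pool 1 and 7.16 in pool 3, and CPEB1, which controls polyadenylation of stored messenger RNA, had 16.8 and 8.58 RPKM. BMP15, an oocyte growth factor, had 11.95 and 5.91 RPKM in these pools, and ZAR1L had 9.89 and 5.08 RPKM. KPNA7, an oocyte importin, was highest in pool 3 at 19.8 RPKM, with 3.23 RPKM in pool 1.

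Pool 1 was the highest pool for 12 of the 42 rows, or 28.6%, against 6.49% of all genes at a mean of 0.1 to 100 RPKM. Over the other 6 pools alone it was highest for 19 of the 42, or 45.2%, against 12.4%. The lists were chosen with earlier results of these data known, and this pattern was noticed in the values, so the shares are a description.

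**Figure D4:**
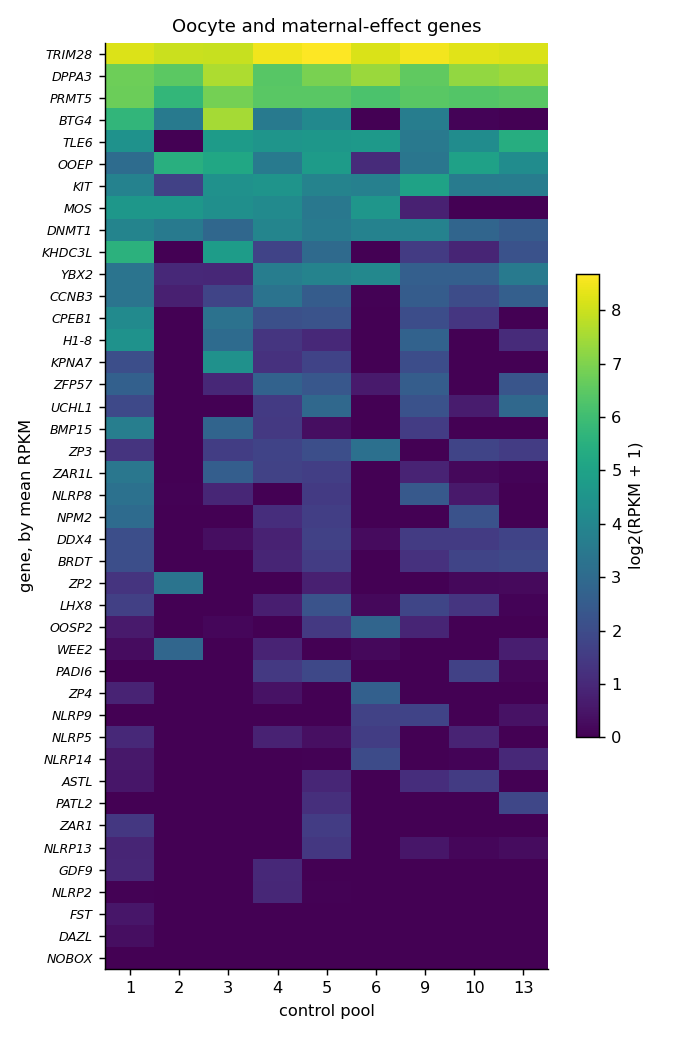
log2(RPKM + 1) of the 42 rows of the oocyte and maternal-effect list in each control pool, ordered by mean RPKM. TRIM28, DPPA3 and PRMT5 are high in every pool. Pool 1 is the brightest column for KHDC3L, CPEB1, H1-8, BMP15, ZAR1L and NPM2, and the columns of pools 2, 3 and 6 hold the most dark cells.

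The machinery that removes maternal RNA was present at moderate levels. Of 32 rows, 19 reached 1 RPKM in every pool (59.4%, against 36.7% of all genes). Of the 17 at a mean of at least 10 RPKM, 1 was stable, against 10.5% of all such genes. This was CNOT9, a subunit of the CCR4-NOT deadenylase, with 27.6 ± 4.43 RPKM. CNOT7 and CNOT11, genes of other subunits of the same complex, had 36.2 ± 13.1 and 47.0 ± 21.1 RPKM, and the decapping gene DCP2 13.1 ± 6.69 RPKM. PABPC1, the somatic poly(A)-binding protein, had 210 ± 88.9 RPKM, and PABPC1L, the oocyte form, 1.63 ± 1.87 RPKM, so the somatic form was 129 times as high. In the same way EIF4E, the general cap-binding protein, was 11.6 times as high as EIF4E1B.

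Of 37 genes of embryonic genome activation listed, 22 matched a row, and 20 of these 22 reached 1 RPKM in every pool (90.9%, against 36.7% of all genes). The other listed genes were not analysed here. HSPA8, the histone variant gene H3-3B (637 ± 139 RPKM) and the translation initiation factor gene EIF1AX (425 ± 139 RPKM) led the list. ZSCAN4, a marker of the earliest embryonic transcription in the mouse and in cattle, was at 23.9 ± 17.3 RPKM, from 3.55 in pool 6 through a median of 18.2 to 50.7 in pool 2. MYC had 28.8 RPKM in pool 6, at most 2.50 RPKM in any other pool and no read in pool 3.

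The largest shares went to ribosomes and mitochondria. Cytosolic ribosomal protein genes took 8.37 ± 1.87% of summed RPKM, from 5.31% in pool 9 to 11.3% in pool 6. Nuclear genes of oxidative phosphorylation took 5.29 ± 0.670% and the 13 mitochondrially encoded genes 2.72 ± 0.793%, from 1.68% in pool 1 to 4.26% in pool 6. Pool 6 was highest for 76 of 82 ribosomal protein rows, 59 of 76 nuclear respiratory rows and 13 of 13 mitochondrial genes, against 29.6% of genes at a mean of at least 10 RPKM. Over the other 6 pools the ribosomal share ran from 5.31% to 9.39% and the mitochondrially encoded share from 1.68% to 3.43%. Many of these genes are short, and short genes were high in pool 6 and low in pool 9. Stable members were 2 of the 82 ribosomal rows and 0 of the 13 mitochondrial genes, against 9 of 76 nuclear respiratory genes, which include ATP5F1B, CYC1 (1682 ± 226 RPKM) and ATP5F1A (1008 ± 99.8 RPKM). Of all genes at a mean of at least 10 RPKM, 10.5% were stable.

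**Figure D5:**
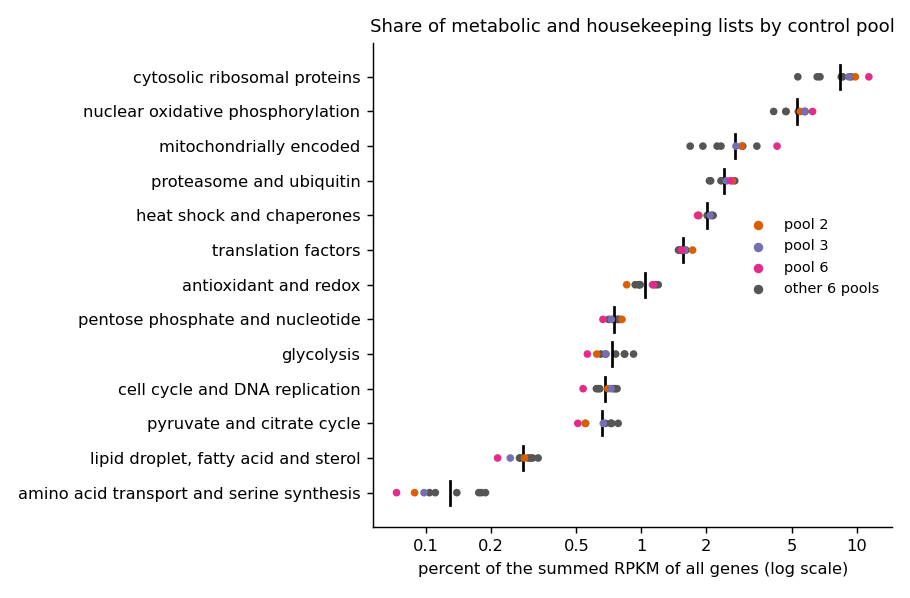
Share of the summed RPKM of all genes held by 13 metabolic and housekeeping lists, on a log scale, a point per control pool and a bar at the mean. Ribosomal protein genes hold the most, at 5.31% to 11.3%, and the spread between pools is widest for mitochondrially encoded genes and for amino acid transport and serine synthesis.

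Many proteostasis genes were stable. Of 34 heat shock and chaperone rows at a mean of at least 10 RPKM, 15 were stable, and so were 14 of 38 translation factor genes and 11 of 37 proteasome and ubiquitin genes, against 10.5% of all genes at a mean of at least 10 RPKM. Their shares of RPKM were 2.005 ± 0.133%, 1.56 ± 0.0728% and 2.42 ± 0.224%. The CCT chaperonin, which folds actin and tubulin, was represented by CCT5 (680 ± 70.0 RPKM) and CCT3 (430 ± 41.7 RPKM), and the small heat shock protein gene HSPB1 had 1523 ± 346 RPKM. HSPA8 was 25.6 times as high as its stress-induced relative HSPA1A, which had 46.5 ± 24.9 RPKM. EIF4A1, the RNA helicase of initiation, had 728 ± 97.5 RPKM, EIF3F had the lowest CV of the translation factors (0.107) and PSMD1 that of the proteasome genes (0.106).

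Glycolysis took 0.728 ± 0.117% of RPKM, and 18 of its 35 rows reached 1 RPKM in every pool (51.4%, against 36.7% of all genes). PGAM1, phosphoglycerate mutase, led with 872 ± 82.9 RPKM, followed by GAPDH with 755 ± 135, ALDOA with 633 ± 85.3 and GPI with 420 ± 68.8 RPKM. Lactate dehydrogenase was mainly the LDHB form, with 307 ± 33.8 RPKM against 27.4 ± 10.4 for LDHA, a ratio of 11.2, and LDHB was higher in 9 of 9 pools. LDHB ran from 243 through a median of 310 to 361 RPKM, whereas LDHA was 38.1 to 43.0 RPKM in pools 3, 4 and 10 and 18.8 to 23.2 RPKM in the other pools.

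Glucose entry was covered by SLC2A3 (211 ± 86.4 RPKM), SLC2A1 (186 ± 43.3 RPKM), SLC2A8 (141 ± 25.3 RPKM) and the fructose transporter gene SLC2A5 (80.3 ± 22.2 RPKM). SLC2A3 ran from 97.3 RPKM in pool 6 to 356 in pool 1 and was above SLC2A1 in 7 of 9 pools. Phosphorylation of glucose had lower levels, with 29.8 ± 12.8 RPKM for HK2 and 12.8 ± 7.99 for HK1. TPI1, triose phosphate isomerase, had 0.924 ± 0.594 RPKM, far below its neighbours in the pathway, and how reads that map to several copies were counted is not given in the sources used here.

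In the citrate cycle list, 27 of 33 rows reached 1 RPKM in every pool (81.8%, against 36.7% of all genes). Of the 26 at a mean of at least 10 RPKM, 5 were stable, against 10.5% of all such genes. MDH2, mitochondrial malate dehydrogenase, had 926 ± 143 RPKM, and MPC1, a subunit of the pyruvate carrier, 585 ± 200.8 RPKM. IDH3B, of the NAD-dependent isocitrate dehydrogenase, had the lowest CV (223 ± 31.7 RPKM, CV 0.142). PDK4, a kinase that shuts off pyruvate dehydrogenase in fasting, had a mean of 0.00702 RPKM. For the pentose phosphate and nucleotide list, 26 of 32 rows reached 1 RPKM in every pool (81.2%, against 36.7% of all genes). Of the 27 at a mean of at least 10 RPKM, 8 were stable, against 10.5% of all such genes. The non-oxidative enzymes TALDO1 (1414 ± 256 RPKM), TKT (612 ± 93.4 RPKM) and RPIA (512 ± 108 RPKM) were high, and PGD, of the oxidative branch, had 256 ± 39.3 RPKM.

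Bovine embryos carry large lipid stores. In the lipid list, 28 of 44 rows reached 1 RPKM in every pool (63.6%, against 36.7% of all genes). Of the 26 at a mean of at least 10 RPKM, 2 were stable, ELOVL6 and PLIN2, against 10.5% of all such genes. PLIN2, the coat protein of lipid droplets, had 268 ± 25.6 RPKM (CV 0.0955). FABP3, a fatty acid binding protein, had 564 ± 167 RPKM, ELOVL6, which elongates fatty acids, 96.2 ± 16.7 RPKM, and FASN, fatty acid synthase, 20.4 ± 10.5 RPKM. PLIN1 and PLIN5, coat proteins of adipose and oxidative tissue, had means of 0.0990 and 0.0646 RPKM. Antioxidant genes took 1.04 ± 0.120% of RPKM, with 23 of 32 rows at 1 RPKM in every pool (71.9%, against 36.7% of all genes). After PRDX2 came PRDX1 (908 ± 334 RPKM), GPX1 (721 ± 197 RPKM) and the mitochondrial thioredoxin gene TXN2 (518 ± 134 RPKM), and SOD1 had 115 ± 22.7 RPKM. NFE2L2, the factor that turns on many of these genes under oxidative stress, had 29.8 ± 4.43 RPKM (CV 0.149), and its target NQO1 a mean of 0.541 RPKM.

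Amino acid transport and serine synthesis had 20 rows, 10 of them at 1 RPKM or more in every pool (50%, against 36.7% of all genes), and 0 of the 13 at a mean of at least 10 RPKM were stable, against 10.5%. The transporter genes SLC3A2 (157 ± 41.5 RPKM), SLC6A8, which carries creatine (121 ± 58.2 RPKM), SLC7A5 (106 ± 33.9 RPKM) and SLC1A1 (97.3 ± 31.9 RPKM) led. PHGDH, the entry enzyme of serine synthesis, had 30.3 ± 22.7 RPKM, from 5.63 RPKM in pool 2 to 74.9 in pool 1.

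Of 46 rows on the cell cycle and DNA replication, 38 reached 1 RPKM in every pool (82.6%, against 36.7% of all genes). Of the 36 rows at a mean of at least 10 RPKM, 5 were stable, against 10.5% of all such genes. MAD2L1, of the spindle checkpoint, had 766 ± 267 RPKM, CCNB1, the mitotic cyclin, 372 ± 59.6, CDC20 302 ± 61.1 and GMNN, geminin, 256 ± 63.7 RPKM. CCNA2 had the lowest CV (144 ± 21.4 RPKM, CV 0.149) and MCM2, of the replicative helicase, the highest (136 ± 80.6 RPKM, CV 0.591). RB1, the retinoblastoma gene, had a mean of 0.0589 RPKM with reads only in pools 9 and 10. CCND1 had 17.7 RPKM in pool 6 and at most 1.04 RPKM elsewhere, against 88.9 ± 27.4 RPKM for CCND2.

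Among 37 rows of DNA methylation and chromatin genes, 25 reached 1 RPKM in every pool (67.6%, against 36.7% of all genes) and 5 of the 19 at a mean of at least 10 RPKM were stable, against 10.5%. NPM1 led with 452 ± 90.9 RPKM, followed by TRIM28, HDAC1 (230 ± 39.7 RPKM) and KDM1A (158 ± 34.0 RPKM). Of the methyltransferases, DNMT3A had 21.7 ± 4.82, DNMT1 10.4 ± 3.76 and DNMT3B 9.33 ± 5.96 RPKM. Of the TET dioxygenases, which oxidise methylcytosine, TET1 had 19.2 ± 3.16 RPKM and was 41.4 times as high as TET3. EZH2, of Polycomb complex 2, had 51.2 ± 17.3 RPKM, and its homologue EZH1 0.614 ± 0.435 RPKM.

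Of 24 rows of the BCL2 family and p53 response, 12 reached 1 RPKM in every pool (50%, against 36.7% of all genes). Of the 12 at a mean of at least 10 RPKM, 2 were stable, against 10.5% of all such genes. These were BCL2L1, which blocks apoptosis (31.6 ± 3.99 RPKM, CV 0.126), and BIRC5. BAD, which opposes BCL2L1, had 368 ± 109 RPKM, and CASP8 and APAF1 had means of 0.0349 and 0.279 RPKM. BOK ran from 0.0377 RPKM in pool 6 to 144 in pool 10. Of 20 imprinted rows, 9 reached 1 RPKM in every pool (45.0%, against 36.7% of all genes). Of the 6 at a mean of at least 10 RPKM, 1 was stable, against 10.5% of all such genes. This was SNRPN, with 153 ± 21.0 RPKM. NDN had 59.9 to 92.1 RPKM in 8 pools and 1.89 RPKM in pool 6. IGF2, a fetal growth factor, had a mean of 0.0242 RPKM and its clearance receptor IGF2R 7.34 ± 2.43 RPKM.

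Genes used to normalise quantitative PCR in embryos differed widely in steadiness. All 25 rows reached 1 RPKM in every pool. Over the 22 rows at a mean of at least 10 RPKM the median CV was 0.234, and 7 were stable, against 10.5% of all such genes. The stable ones included ACTG1 (CV 0.153), ACTB (0.157), HDAC1 (0.173), GAPDH (0.179), TUBB (0.181) and EEF1A1 (0.186). Just above were GUSB (0.202), EIF2B2 (0.203), HPRT1 (0.227), RPLP0 (0.228), SDHA (0.241) and TBP (0.243). RPL15 had a CV of 0.287, PPIA 0.289, H2AZ1 0.306 and YWHAZ 0.350. Among the least steady were UXT (0.408), RPS18 (0.409), SUZ12 (0.425), CNOT11 (0.448), CHUK (0.453), B2M (0.483) and POLR2A (0.713), of which SUZ12, CHUK and POLR2A had means under 10 RPKM. PPIA, H2AZ1, HPRT1, RPLP0, RPL15 and RPS18 were each highest in pool 6 and lowest in pool 9, the order also shown by short genes.

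Markers of other cells that could be carried along were mixed, with most below 0.5 RPKM in the cumulus and granulosa list and several above 1 RPKM in the others. Of 26 cumulus and granulosa genes listed, 19 matched a row and 1 reached 1 RPKM in every pool (5.26%, against 36.7% of all genes). This was SERPINE2, a protease inhibitor with 88.4 ± 17.1 RPKM, and 12 had means under 0.5 RPKM, where 25% of all genes did. Their summed level was 65.0 to 149 RPKM, most of it SERPINE2 and PTGS2 (13.9 ± 11.7 RPKM). Of the defining genes, CYP19A1 had a mean of 0.170 RPKM, up to 0.601 in pool 5, INHBA 0.105, up to 0.627 in pool 13, VIM 0.0951, up to 0.464 in pool 5, and VCAN 0.00541 RPKM, and AMHR2 had no read. Of 16 sperm genes listed, 7 matched a row. These summed to 17.7 to 35.3 RPKM and were led by ODF2, a gene of the sperm tail and of centrosomes, with 9.25 ± 4.81 RPKM, where PRM2 had reads only in pool 1 (1.38 RPKM) and TNP2 had 5.72 ± 3.44 RPKM.

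Of 15 blood and immune genes listed, 10 matched a row. These summed to 42.0 to 114 RPKM, and 4 of them reached 1 RPKM in every pool, or 40.0% against 36.7% of all genes. CSF1R, a macrophage growth factor receptor that trophoblast also uses, had 15.3 ± 13.3 RPKM, from 2.63 in pool 10 to 44.5 in pool 2. PECAM1, an adhesion molecule of endothelium and blood cells, had 13.5 ± 8.82 RPKM, from 4.35 in pool 6 to 33.3 in pool 9. The macrophage gene CD68 had 7.28 ± 5.32 RPKM, the globin gene HBA 7.70 ± 2.80 RPKM, and CD3E, of T cells, had reads only in pool 10. Of 14 oviduct genes listed, 12 matched a row and summed to 16.4 to 60.9 RPKM. Among them 2 reached 1 RPKM in every pool (16.7%, against 36.7% of all genes), TPPP3 and RSPH1, genes of ciliated cells. TPPP3 had 14.9 ± 9.14 RPKM, with 36.4 RPKM in pool 6, RSPH1 had 6.58 ± 5.33 RPKM, and OVGP1, the oviductal glycoprotein, had a mean of 0.752 RPKM. Of 14 bovine trophoblast products listed, 8 matched a row and summed to 9.25 to 40.7 RPKM, with the pregnancy-associated glycoprotein gene PAG2 at 15.2 RPKM in pool 9 and 2.33 RPKM or less in the others. The part of such cells in any value above was not tested.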

How the data were processed

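RNA from pools of 10 morulae was extracted with a Qiagen RNA micro kit and made into stranded mRNA libraries, per the labels' protocols. The submitters' processing notes name HISAT2, featureCounts, FastQC, edgeR and the assembly ARS-UCD1.2, without versions. No source used here gives the strand or multi-mapping settings. The authors deposited RPKM per gene and pool with an exon length. Only the 9 control columns were used. The authors' deposited group means, log2 fold changes, likelihood ratio scores and p-values were not used. 0 per-sample columns of the table were left unmapped.

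RPKM times length fell on whole multiples of a step per library for 100% of values (tolerance 0.001), and these multiples were taken as reads, without molecular identifiers. Mean, SD, CV, and the CV from counting alone were computed in Python 3.11.15 with numpy 2.4.6 and pandas 2.3.3, and plots drawn with matplotlib 3.10.9. No test between groups was made, since there is a single group. The CV computation was tested on simulated data. Stable was a CV of at most 0.2, variable a CV of at least 1, both at a mean of at least 10 RPKM.

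Named genes were the 20 highest means, 15 lowest and 15 highest CVs with a symbol, 10 at each end against genes of like mean, the markers, up to 8 members per list by mean, extremes of CV, members at or under 0.5 RPKM, and any lineage, oocyte, reference or other-cell gene. Further list members, such as LDHA, HK1, FASN, SOD1, DNMT3A and TET1, and genes beside a bound, were named after their values were seen. The members and lists were chosen with earlier results of these data known. Symbols on more than 1 row numbered 57, 2774 genes had none, and genes with near-identical copies may share reads. Listed genes with no row matched by symbol were not analysed here. Alternatives were other pools, scalings, bounds and filters. A few genes covered by the rule are not reported here. Sequences and positions were not used here.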

Additional observations from a re-analysis of the deposited data

Results flagged for a closer look

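A value was singled out when the gap from the highest or lowest pool to its nearest neighbour, divided by the whole range, exceeded the Dixon bound at 95%. Chance singles out about 1 in 20 groups under a normal spread. Of the 5780 genes at a mean of at least 10 RPKM, 11.7% met this, and of the 264 genes named, 59 did. Some named genes were chosen for a high CV or a low mean, so their count cannot be set against the 11.7%. Several of the 59 had means under 1 RPKM, where reads in a single pool suffice.

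Pool 6 was set apart above the others for 19 named genes. The abundant ones were TMSB10 at 10724 RPKM, ATP6 at 6387 RPKM, H2BC11 at 669 RPKM, ND3 at 404 RPKM, GNB1L at 241 RPKM and OTX2 at 111 RPKM. H2AC6 stood at 75.8, CRCT1 at 62.8, PRRX2 at 62.1, NARF at 52.5, CREB3 at 49.7, TPPP3 at 36.4 and RSPH1 at 19.1 RPKM. Genes low elsewhere were MYC at 28.8, SOX17 at 28.8, IFNT at 22.4, CCND1 at 17.7, ZP3 at 8.23 and ZP4 at 5.35 RPKM. Pool 6 was set apart below the others for NDN, at 1.89 RPKM, and TBP, at 8.82 RPKM. It was the highest pool for 29.6% of genes at a mean of at least 10 RPKM, and the next, pool 2, for 15.7%.

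Pool 1 was set apart above the others for ID3 at 67.5, H1-8 at 20.3, BMP15 at 11.95, NPM2 at 7.12, NQO1 at 3.24, PRDM1 at 1.75, KLF2 at 1.70, PRM2 at 1.38 and DAZL at 0.254 RPKM. Of these 9 genes, H1-8, BMP15, NPM2 and DAZL belong to the oocyte list. Pool 3 was set apart above for BTG4 at 181, EIF4E at 174, NPSR1 at 47.5, FGF4 at 37.3 and KPNA7 at 19.8 RPKM. Pool 2 was set apart above for DDOST at 465 RPKM, a steady gene whose next pool was at 408 RPKM, and for NXNL2 at 56.2, FCHSD1 at 43.4 and ZP2 at 9.16 RPKM. Pool 2 also stood apart with no read for 206 genes at a mean of at least 10 RPKM and with 1.73% of RPKM in translation factors.

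Pool 4 was set apart above for ACTB at 13119 RPKM, CCND2 at 150 RPKM, DSC2 at 3.91 RPKM and EOMES at 1.12 RPKM. Pool 5 was set apart above for TEAD4 at 163 RPKM and set apart below for NFE2L2 at 19.8 RPKM. Traces in pool 5 were 1.07 RPKM of DSC3, 0.581 of PLIN5, 0.314 of CASP8, 0.213 of IGF2, 0.206 of SOX7, 0.167 of ELF5, 0.0487 of VCAN and 0.0136 of NOBOX. Pool 9 was set apart above for PECAM1 at 33.3 RPKM, PAG2 at 15.2 RPKM and RB1 at 0.510 RPKM, and held 0.146% of RPKM in maternal RNA clearance genes. Pool 10 was set apart above for CD3E at 1.003 RPKM, and pool 13 for INHBA at 0.627 and PDK4 at 0.0590 RPKM. No cause of these single-pool values was tested.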

How the results depend on the processing

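No paired analysis was possible because a single group is described, and no result comes from a test between groups. The Dixon bound served only to single out values. Without pools 2, 3 and 6, 1554 genes were stable and 7 variable, 6 genes at a mean of at least 10 RPKM had no read in some pool, and the median CV was 0.264. Leaving out 1 pool at a time gave 19 to 54 variable genes, 19 of them without pool 6, and 138 to 304 genes with no read in some pool, 138 without pool 2. With a bound of 0.15 or 0.3, 203 or 2051 genes were stable. With a bound of 0.75 or 1.5, 199 or 5 were variable. Genes with a mean of at least 1 RPKM gave 1738 variable genes and a median CV of 0.514, and no filter a median CV of 0.742. Ranking by reads kept 13 of the 20 most abundant genes. On a TPM scale 104 genes were variable and 704 had no read in some pool, and the means of POU5F1, GATA6, CDX2, GATA3 and CLDN7 became 3115, 493, 49.3, 49.4 and 25.3, mostly because RPKM summed to a mean of 629599 per pool. With RPKM sums set equal, which differs from the TPM scale by a constant, 31 genes were variable and 315 had no read in some pool. A bound of 10 on the TPM scale takes in genes of lower RPKM. The cause of the other shifts was not tested. The counting error of genes near 1 read limits values at the floor.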
